A study of Homo sapiens with 6 samples.

Results

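The 5 zinc finger gene clusters of human chromosome 19 were described by their open chromatin in HCT116 cells, an established colon cancer line. The assay was ATAC-seq: a transposase inserts sequencing adapters where DNA is exposed. Of 6 libraries, 3 came from cells labelled NuMA depletion and 3 from cells labelled wild type. NuMA is a structural protein of the interphase nucleus and of the spindle poles, and the study asks what its loss does to local chromatin architecture. The sample titles carry the abbreviations AID and NC. The labels do not say how NuMA was removed, for how long, whether the wild-type cells received a matching treatment, or how many clones were used. Nor is it stated that replicates were separate cultures. The p-values below therefore measure the spread between libraries only, and that spread may be technical.

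Each library came with a list of peaks, the intervals where its reads piled up above the local background. The lists were merged wherever peaks overlapped by at least 1 bp, and a merged interval is called a region. Members were the regions whose centre lay in 1 of 5 intervals of build hg19, used for all positions here: chr19:19900001-24600000 (cluster 1), chr19:36500001-38400000 (cluster 2), chr19:44300001-45000000 (cluster 3), chr19:52300001-53900000 (cluster 4) and chr19:56100001-58900000 (cluster 5). There were 172 of them among 58926 regions of the series. They made up 7.64% of the regions of chromosome 19, while the intervals took 21.0% of its length between the first and the last peak, the stretch after cluster 1 being counted only from its first peak. The rest of the chromosome held 2078 regions.

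The genes of these clusters encode proteins that bind DNA through tandem zinc fingers, and most carry a KRAB domain. That domain recruits the corepressor TRIM28, which brings heterochromatin to the bound sites, many of them in transposable elements. The clusters grew by tandem gene duplication, and the genes themselves are known to combine an open promoter with a body rich in heterochromatin marks. In the RefSeq gene table of another build, 269 of 1451 protein-coding genes of chromosome 19 have a zinc finger symbol, and 242 of those lie next to another one. The longest unbroken run counts 27 genes, from ZNF737 to ZNF681, and belongs to cluster 1. It includes ZNF91, known in human cells as a repressor of the SVA retrotransposons. Cluster 2 is home to a run of 24 genes from ZNF565 to ZNF793, and cluster 3 to a run of 20 from ZNF283 to ZNF180. Cluster 4 holds several runs, among them 1 of 10 genes from ZNF766 to ZNF83. In cluster 5 lie a run of 23 genes, from ZNF772 to ZNF256, and a run of 8, from ZNF606 to ZNF8, with ZNF274, a protein that itself binds the ends of zinc finger genes. These runs were placed by textbook knowledge of the chromosome. As the gene table uses another build than the peak lists, no single region was tied to a gene. The rest of the chromosome is not free of such genes: a run of 24, from ZNF627 to ZNF791, lies outside the 5 intervals.

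**Figure D1:**
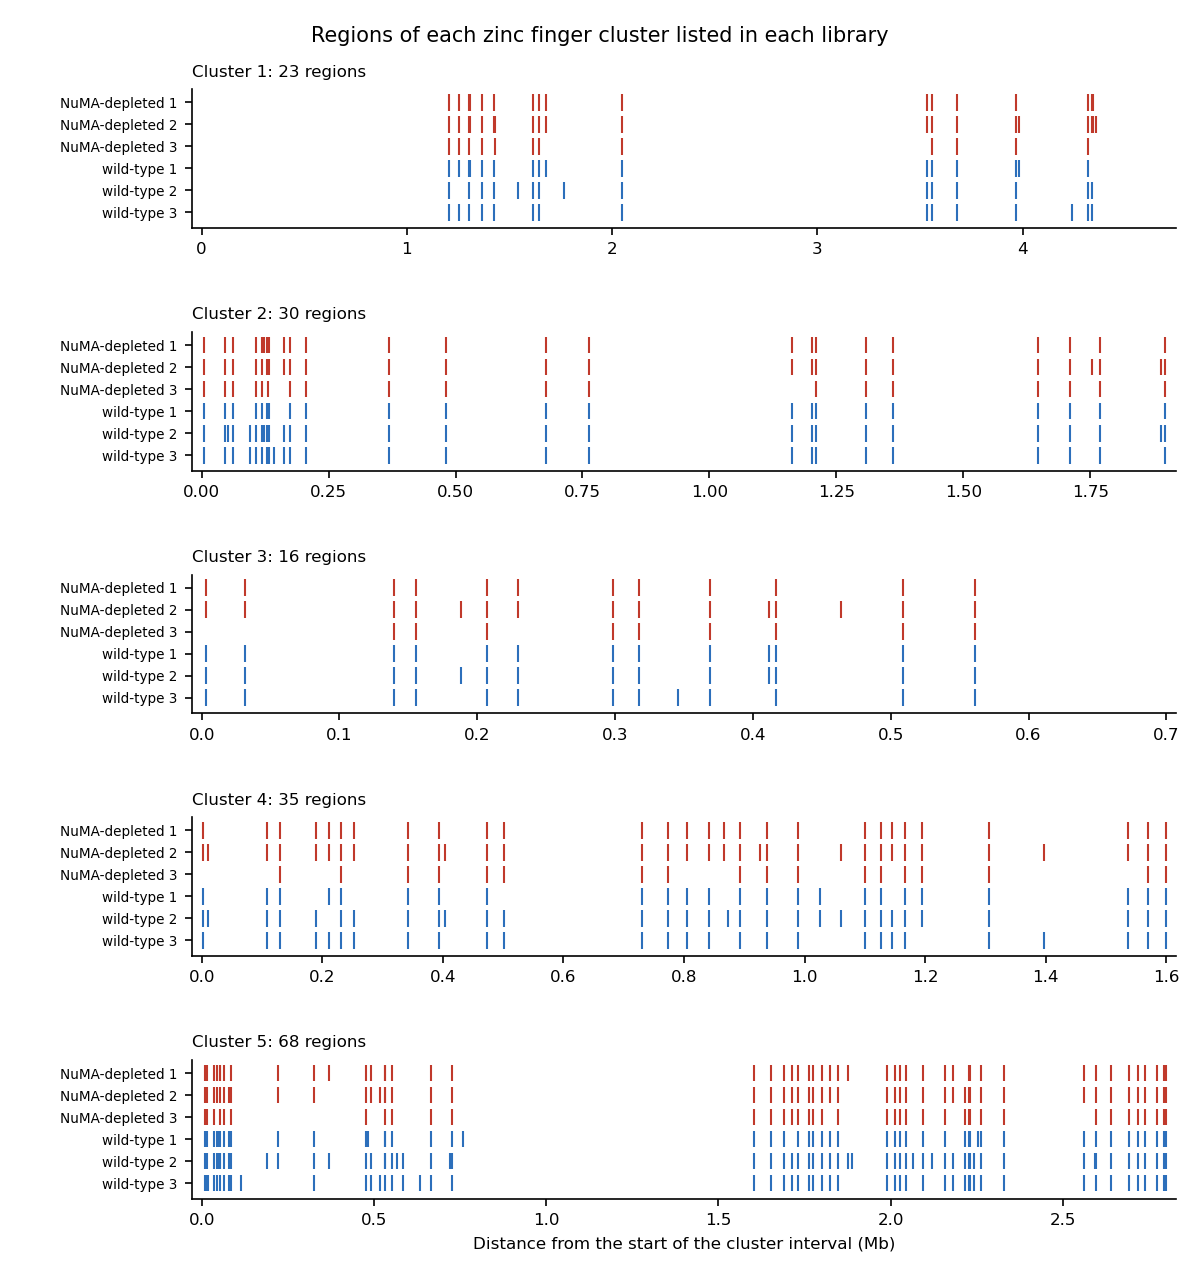
Each tick is a region of a cluster, drawn at its distance from the start of the cluster's interval (horizontal axis, Mb, a scale of its own for each panel) in the row of each library that lists it. Rows are the 3 NuMA-depleted libraries (red) above the 3 wild-type libraries (blue). Most ticks run through the rows of both groups, and clusters 1 and 5 each show a long stretch with no tick in any row.

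Peaks were sparser in the clusters than in the rest of chromosome 19, in all 6 libraries. In the clusters the NuMA-depleted libraries had 11.3, 12.3 and 8.29 peaks per Mb, and the wild-type libraries 10.7, 12.7 and 11.5. In the rest of the chromosome the NuMA-depleted libraries had 34.1, 38.7 and 18.9 peaks per Mb, and the wild-type libraries 29.3, 34.7 and 29.7. No library had a cluster density near that of its own remaining chromosome, each taken as a whole. The log2 ratio of clusters to rest was -1.45 ± 0.16 (SD, n = 6), a ratio of 0.365, with p = 0.03125 in an exact sign-flip permutation test over libraries (two-sided), the smallest that 6 libraries allow. Adjusted over the 5 measures compared in this way (density, spacing, regularity, width and fold), the exact p was 0.0391. The libraries share the same loci, so this test speaks of the libraries and not of other loci. Without cluster 1 the log2 ratio was -0.90.

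The clusters differed among themselves, and cluster 1 stood lowest. It held 23 regions over 4.7 Mb, 4.89 per Mb. Cluster 2 held 30 regions at 15.8 per Mb, cluster 3 held 16 at 22.9, cluster 4 held 35 at 21.9 and cluster 5 held 68 at 24.3. The rest of the chromosome had 47.2 regions per Mb, but was not uniform. Its stretch between clusters 1 and 2, 8.76 Mb from its first peak, had 22.8 regions per Mb, near clusters 3, 4 and 5. In all 6 libraries that stretch held fewer peaks per Mb than cluster 4. The other stretches of the rest ran from 45 to 82.9 regions per Mb. In single libraries cluster 1 had 12 to 20 peaks in NuMA-depleted and 15 to 16 in wild-type cells. The other 4 clusters ran from 10 to 21.4 peaks per Mb in NuMA-depleted and from 12.1 to 21.8 in wild-type libraries. Regions covered 1.07% of the length of the 5 intervals and 3.03% of the rest.

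**Figure D2:**
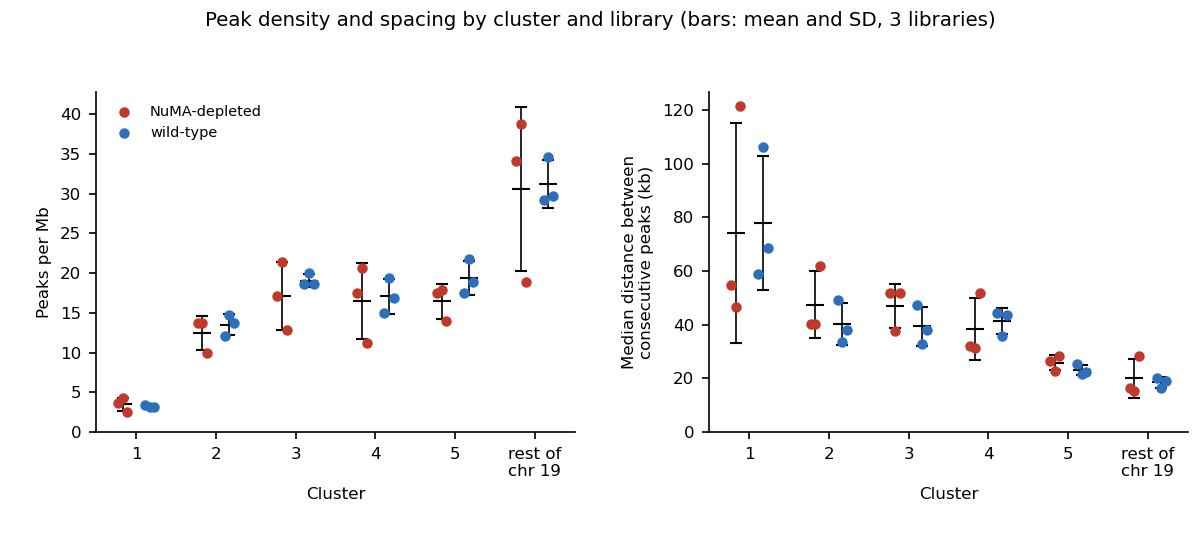
Peaks per Mb (left) and the median distance between the centres of consecutive peaks in kb (right) are plotted for each cluster and for the rest of chromosome 19. Points are libraries, NuMA-depleted (red) left of wild-type (blue), with the mean and SD of 3 libraries. Cluster 1 lies between 2.55 and 4.26 peaks per Mb, and the rest of the chromosome between 18.9 and 38.7.

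Several clusters held long stretches without any listed region. In cluster 1 no region was listed over the first 1206 kb of the interval. After the region at chr19:21949588-21950597 the next region was centred 1483 kb further on. What the 6 libraries did list there fell into 2 groups, 13 regions before that stretch and 10 after it. The group before it spanned 0.845 Mb with 15.4 regions per Mb, and the group after it 0.825 Mb with 12.1 regions per Mb. Cluster 5 had a similar stretch of 843 kb, after chr19:56859548-56859893, with 30 regions before and 38 after it. The median distance was 14.9 kb in the part before it and 22.7 kb in the part after it, and 11 of the 30 and 26 of the 38 regions were called in all 6 libraries. In clusters 2, 3 and 4 the longest distance was 400 kb, 108 kb and 230 kb. In each list the peak numbers run without a missing number, so the empty stretches are as listed, and a stretch without a peak is one where nothing passed the caller's threshold. How reads that map to several places were handled before calling was not given, and their part in the empty stretches was not tested.

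Neighbouring peaks stood further apart in the clusters than elsewhere on the chromosome, in all 6 libraries. The median distance in the clusters was 35.3, 30.8 and 49.6 kb in the NuMA-depleted and 40.2, 30.8 and 32.0 kb in the wild-type libraries. In the rest it was 16.6, 15.1 and 28.4 kb in the NuMA-depleted and 20.1, 16.4 and 19.1 kb in the wild-type libraries. The log2 ratio of clusters to rest was 0.93 ± 0.13 (SD, n = 6), a ratio of 1.91, with an exact sign-flip p of 0.03125 and an adjusted exact p of 0.0391. Over merged regions the median distance was 55.0 kb in cluster 1, 31.9 kb in cluster 2, 28.7 kb in cluster 3, 31.4 kb in cluster 4 and 21.3 kb in cluster 5. The rest had 12.4 kb.

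Regular spacing was seen to an unequal degree. It was measured by the local variation, which compares each distance with the next one. It is near 1 when positions are independent, below 1 when they are evenly spread and above 1 when they are bunched. Over all merged regions cluster 4 had the lowest local variation, 0.588, followed by cluster 3 with 0.657, cluster 5 with 0.742, cluster 2 with 0.867 and cluster 1 with 1.27. The order depended on the regions taken: among those called in all 6 libraries cluster 3 had 0.508 and cluster 4 had 0.649. Over all merged regions, single stretches of the rest ran from 0.676 to 0.829. Cluster 5 lay within that range and cluster 3 just below it. All 5 clusters together had 0.793 and the rest 0.785, values that lie close together. The difference within libraries was -0.061 ± 0.11 (SD, n = 6; lower in the clusters in 4 of 6 libraries), with an exact sign-flip p of 0.188. In single libraries the local variation of cluster 4 averaged 0.595 ± 0.089 in NuMA-depleted cells, against 0.558 ± 0.030 in the wild-type ones, and that of cluster 3 averaged 0.643 ± 0.118 in NuMA-depleted cells, against 0.823 ± 0.192 in the wild-type ones (SD, n = 3 each). Cluster 4 stayed below 1 in every library but was not the lowest in NuMA-depleted replicate 3, where it had 0.691, cluster 5 had 0.689, cluster 2 had 0.663 and cluster 3 had 0.508. Cluster 1 had 1.22, 1.59 and 0.827 in NuMA-depleted and 1.45, 0.857 and 0.939 in wild-type libraries, so 3 of the 6 lay below 1 and bunching was not seen in each library. When cluster 1 was left out, an alternative added after seeing the data, the difference was -0.11 with an exact p of 0.03125.

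The distances themselves fell into classes in unequal shares. Of the 34 distances in cluster 4, 18 (52.9%) measured 20 to 40 kb, 3 measured 10 to 20 kb and none was under 5 kb. In cluster 5, 22 of 67 (32.8%) fell between 20 and 40 kb and 6 were under 5 kb. Cluster 3 had 5 of 15 in that range and another 5 between 40 and 80 kb. Cluster 2 spread its 29 distances widely, with 8 under 10 kb and 8 over 80 kb. In the rest of the chromosome 431 of 2072 distances (20.8%) fell between 20 and 40 kb and 372 (18.0%) were under 5 kb. The coefficient of variation, which a single long stretch can dominate, was 0.961 in cluster 4 and 0.686 in cluster 3, against 2.18 in cluster 1 and 2.53 in cluster 5. These classes of distance were chosen with earlier results of the data known, and the shares are given as a description.

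**Figure D3:**
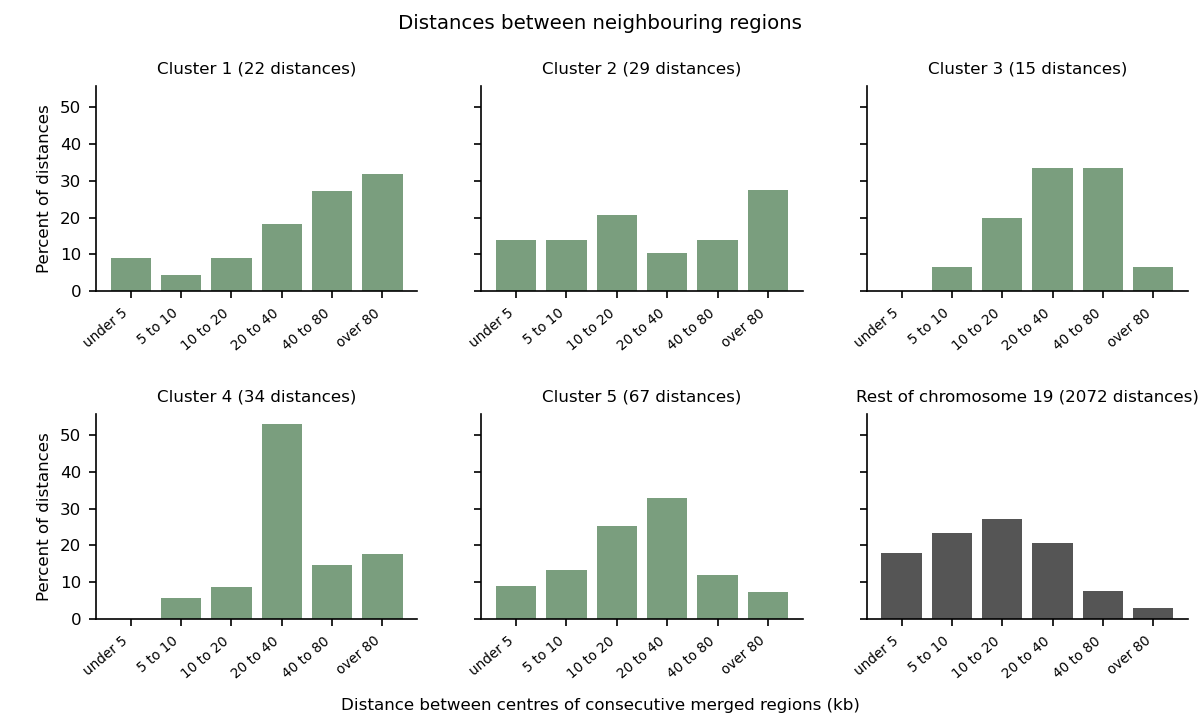
Bars give the percent of distances between the centres of consecutive merged regions that fall into each class of distance (kb), for each cluster (green) and for the rest of chromosome 19 (grey). Cluster 4 has 52.9% of its distances between 20 and 40 kb, where the rest of the chromosome has 20.8%.

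Peaks were wider in the clusters. The median peak measured 594, 678 and 528 bp in the clusters of the NuMA-depleted libraries, and 586, 560 and 628 bp in those of the wild-type libraries. In the rest of the chromosome it measured 456, 546 and 445 bp in NuMA-depleted and 446, 435 and 485 bp in wild-type libraries. The difference within libraries was 127 ± 22.4 bp (SD, n = 6), larger in the clusters in 6 of 6 libraries (exact sign-flip p = 0.03125, adjusted 0.0391). It shrank to 49.2 bp among regions called in all 6 libraries (larger in 5 of 6 libraries, exact p = 0.0625), an alternative added after seeing the data. Merged regions had a median width of 826 bp in cluster 4, 751 bp in cluster 3, 725 bp in cluster 1, 706 bp in cluster 5 and 681 bp in cluster 2, and of 553 bp in the rest. A merged region spans the peaks of all libraries that list it, so this width can grow with each library added.

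Peaks of the clusters were also stronger within their own lists. The fold is each peak's enrichment over the caller's local background, the authors' own value per library. Its median in the clusters was 8.88, 8.45 and 7.54 in NuMA-depleted and 8.27, 8.84 and 8.46 in wild-type libraries. In the rest of the chromosome it was 6.57, 6.36 and 5.6 in NuMA-depleted and 5.98, 6.77 and 6.45 in wild-type libraries. The log2 ratio was 0.42 ± 0.031 (SD, n = 6), a ratio of 1.34, the same way in 6 of 6 libraries (exact sign-flip p = 0.03125, adjusted 0.0391). Set against the whole list of its library, the median cluster peak stood at the percentile 77.0, 77.5 and 77.0 in NuMA-depleted and 76.3, 70.1 and 75.5 in wild-type libraries. Peaks of the rest of chromosome 19 stood at 42.5, 44.9 and 38.5 in NuMA-depleted and 39.5, 40.8 and 42.4 in wild-type libraries. Among regions called in all 6 libraries the log2 ratio was 0.38 with the same exact p. By cluster, cluster 1 had the widest gap between the groups in the fold, with medians of 8.66, 9.03 and 7.98 in NuMA-depleted and 9.41, 9.86 and 9.88 in wild-type libraries, which did not overlap. Percentiles of the lists take out each library's scale, but not the length of its list. As such percentiles the same peaks stood at 74.4, 84.1 and 82.2 in NuMA-depleted and 87.8, 81.4 and 90.3 in wild-type libraries, and overlapped. This pair of values was picked after it was seen and was not tested.

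**Figure D4:**
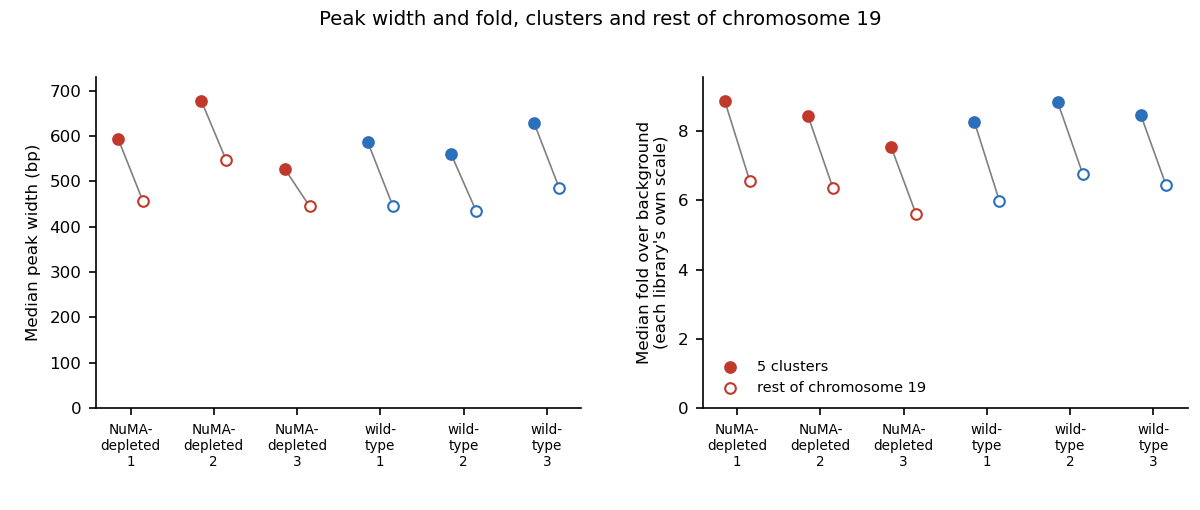
The median peak width in bp (left) and the median fold over background (right, each library on its own scale) are plotted for the 5 clusters (filled) and the rest of chromosome 19 (open) of each library, NuMA-depleted in red and wild-type in blue. In all 6 libraries the clusters lie above the rest, by 83 to 143 bp in width.

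Members were called in all 6 libraries more often than other regions were, as a share of each set. Of the 172, 91 (52.9%) were in all 6 lists, with a 95% Wilson interval over regions of 45.5% to 60.2% that covers counting error only. In the rest of the chromosome 713 of 2078 (34.3%) were in all 6, and in the series 17009 of 58926 (28.9%). By cluster, the share was 63.3% in cluster 2, 56.2% in cluster 3, 54.4% in cluster 5, 45.7% in cluster 4 and 43.5% in cluster 1. A single library called 24 members (14.0%), against 434 (20.9%) in the rest. Strength went with the number of libraries: members called in all 6 had a median of the mean fold of 9.21, and those called once had a median fold of 5.20. The peaks of the 91 members in all 6 lists had median widths of 665, 767 and 534 bp in NuMA-depleted and 652, 687 and 721 bp in wild-type libraries. Positions of the same cells are not independent replicates, and these shares were not tested.

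**Figure D5:**
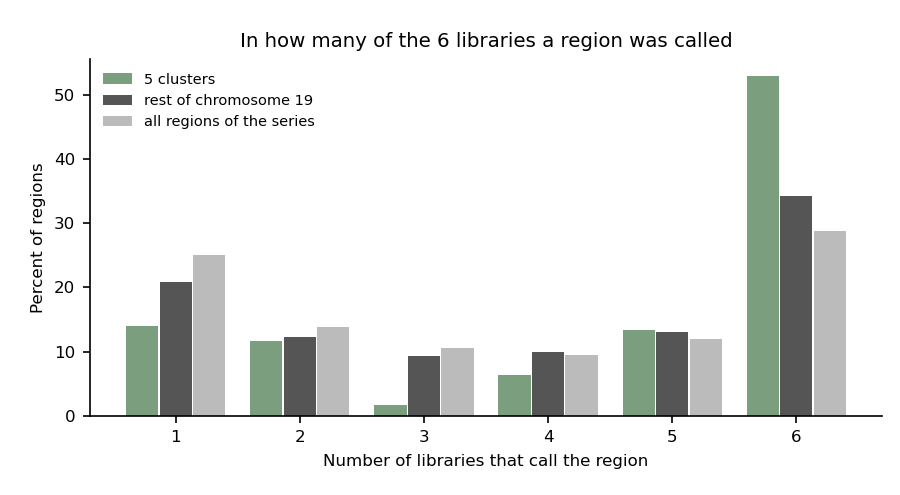
Bars give the percent of regions called in 1 to 6 libraries, for the 5 clusters (green), the rest of chromosome 19 (dark grey) and all regions of the series (light grey). The clusters have 52.9% of their regions in all 6 libraries, above the rest of the chromosome with 34.3% and the series with 28.9%.

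Libraries listed unequal numbers of members, as they did of all regions. NuMA-depleted replicates 1, 2 and 3 listed 131, 143 and 97 of the 172, and wild-type replicates 1, 2 and 3 listed 125, 149 and 133. NuMA-depleted replicate 3 has the shortest list of the series, 21783 peaks, where the other lists hold 32503 to 45892. It was the sole library missing at 18 of the 23 members that were called in 5 libraries. The same held for 217 of 273 such regions in the rest of the chromosome and for 5122 of 7063 in the series. NuMA-depleted replicate 3 kept 56.4% of the members, against 39.4% of the regions in the rest of the chromosome. Of the 24 members called once, 4 were in a NuMA-depleted library, all in replicate 2, and 20 in a wild-type library, of which 11 in replicate 2. In the whole series 8482 regions called once were in a NuMA-depleted and 6318 in a wild-type library. Cluster 5 held 13 of the 24, all in wild-type libraries, with 7 in wild-type replicate 2.

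The strongest members were ranked by their weakest −log10 q among the 6 libraries, and the highest in the clusters ranked at place 159 among the 17009 regions called everywhere. It lay in cluster 2 at chr19:36705132-36706226. Its folds were 9.08, 10.5 and 10.9 in NuMA-depleted and 9.52, 10.5 and 11.9 in wild-type libraries, and the groups overlapped. The strongest of cluster 5, at chr19:57900995-57901891, took place 275. It had folds of 12.9, 11.6 and 12.5 in NuMA-depleted and 12.8, 13.5 and 10.9 in wild-type libraries, again overlapping. In cluster 1 the strongest, chr19:21541584-21542480, had folds of 10.9, 10.2 and 11.8 in NuMA-depleted and 12.3, 13.1 and 10.1 in wild-type libraries. These regions were high in every library of both groups, which the ranking by the weakest library asks for.

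The strongest of cluster 4, at chr19:52692607-52693994, was also its widest region called everywhere, at 1388 bp merged. Its folds were 8.82, 8.38 and 8.69 in NuMA-depleted and 7.67, 9.28 and 8.52 in wild-type libraries. Cluster 3 had its strongest at chr19:44808612-44809308, with folds of 12.2, 9.68 and 11.1 in NuMA-depleted and 11.5, 12.4 and 12.8 in wild-type libraries. The groups overlapped at both. Second in their clusters were chr19:21949588-21950597 in cluster 1, chr19:37708498-37709524 in cluster 2, chr19:44668793-44669573 in cluster 3, chr19:53606017-53607164 in cluster 4 and chr19:57831300-57832398 in cluster 5. Their folds ranged from 8.47 to 13.6 over all libraries. The first of these is also the region at the near edge of the empty stretch of cluster 1.

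Except in cluster 4, the widest member called everywhere was not the strongest of its cluster; in cluster 1 it was the second strongest. In cluster 5 the widest covered 1995 bp at chr19:56164928-56166922, with folds of only 4.38 to 7.55. In cluster 2 it covered 1354 bp at chr19:36605540-36606893, with folds of 7.18 to 9.39, and in cluster 3 it covered 1017 bp at chr19:44506703-44507719, with folds of 6.71 to 13.7. By the same ranking, 19 of the 91 members called everywhere (20.9%) stood in the top 10% of such regions of the series, against 55 of 713 (7.71%) in the rest of chromosome 19. Cluster 5 held 10 of the 19 and cluster 2 held 4. At the other end, 3 members stood in the lowest 10%.

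No member was called in every library of 1 group and in none of the other. Among the 172, 0 were listed in all 3 NuMA-depleted and no wild-type library, where the whole series had 368 regions (0.625%). Likewise 0 members were listed in all 3 wild-type and no NuMA-depleted library, where the series had 349 (0.592%). Over 172 members, a count of 0 is near both of those shares. With 2 of 3 libraries, 3 members (1.74%) were listed in NuMA-depleted cells alone, where the series had 4.41%, and 5 (2.91%) in wild-type cells alone, where the series had 2.25%. The series thus ran the other way to the members' counts, and the difference was not tested. The strongest of the 3 lay in cluster 1 at chr19:24243377-24244015, with folds of 8.19 and 8.53. The strongest of the 5, in cluster 5 at chr19:56683357-56683690, had folds of 8.86 and 10.5. Both were picked after their values were seen. Where a list lacks a region, its signal there was under the caller's threshold, and the chromatin need not have been closed.

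The share of each list that fell in the clusters overlapped between NuMA-depleted and wild-type libraries. It was 0.343%, 0.314% and 0.445% in NuMA-depleted and 0.352%, 0.385% and 0.412% in wild-type libraries, with means of 0.367% ± 0.069 in NuMA-depleted cells, against 0.383% ± 0.030 in the wild-type ones (SD, n = 3 each; exact permutation test, two-sided, p = 0.7). With 3 libraries against 3 the smallest possible p is 0.1. Cluster 5 took 0.138% ± 0.036 of the peaks in NuMA-depleted cells, against 0.153% ± 0.013 in the wild-type ones (SD, n = 3 each, exact p = 0.6). Cluster 1 took 0.0476% ± 0.0065 in NuMA-depleted cells, against 0.0433% ± 0.0040 in the wild-type ones (SD, n = 3 each, exact p = 0.6). For clusters 2, 3 and 4 the exact p was 0.9, 0.5 and 0.9. The contrasts between clusters and rest were likewise compared between the groups, with overlapping values in each. The log2 density ratio averaged -1.48 ± 0.25 in NuMA-depleted cells, against -1.42 ± 0.04 in the wild-type ones (SD, n = 3 each, exact p = 0.8). Without NuMA-depleted replicate 3, the shortest list, that difference was -0.20 (exact p = 0.1, the smallest possible), against -0.055 with it; the part of the list length in these comparisons was not tested. The excess in width averaged 118 ± 30.2 bp in NuMA-depleted cells, against 136 ± 9.64 bp in the wild-type ones (SD, n = 3 each, exact p = 0.5). The difference of -18.3 bp was -1 bp without NuMA-depleted replicate 3 and -28.8 bp without NuMA-depleted replicate 1. Among regions called in all 6 libraries, an alternative added after seeing the data, it was -49.2 bp (exact p = 0.1, the smallest possible). For spacing, local variation and fold the exact p was 0.5, 0.7 and 0.8. Over these 11 comparisons the adjusted exact p was 0.9 throughout, a value the design could not bring under 0.05.

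Peak density was also tested in 1 Mb bins over the whole genome with limma, on the log2 share of each list. No bin passed at an adjusted p of 0.05 among 2022 tested (0%), and 114 (5.64%) had an unadjusted p under 0.05. Of the 9 tested bins centred in a cluster, 0 passed and 1 had an unadjusted p under 0.05. Some of the 9 reach past a cluster's edge. In wild-type libraries the bin from 36 to 37 Mb held 36 to 44 peaks, where all of cluster 2 held 23 to 28. The bin from 44 to 45 Mb held 30 to 33, where all of cluster 3 held 13 to 14. Only the bin from 21 to 22 Mb stood for cluster 1, as its others fell under a mean of 5 peaks and were not tested. The bin with an unadjusted p under 0.05, from 56 to 57 Mb in cluster 5, held 22, 25 and 11 peaks of the NuMA-depleted lists and 23, 29 and 27 of the wild-type lists. As a share of its list this was 0.0572%, 0.0545% and 0.0505% in NuMA-depleted and 0.0648%, 0.0750% and 0.0831% in wild-type libraries, so the groups did not overlap. The log2 difference was -0.44 (SE 0.127), with an adjusted p of 0.872 by limma. Bins lower in all 3 NuMA-depleted than in all 3 wild-type libraries made up 5.49% of all bins tested and 1 of the 9 here. Bins higher in all 3 NuMA-depleted libraries made up 6.08% of all and 0 of the 9. The bin holds the part of cluster 5 before its empty stretch. Among the 9 the log2 difference was above 0 in 3 and below 0 in 6, with a median of -0.077, where all bins had a median of 0.0014. That direction rested on single libraries: without NuMA-depleted replicate 2 the median was 0.070, with 6 above 0 and 3 below, and without NuMA-depleted replicate 3 it was -0.21, with all 9 below 0. Leaving out NuMA-depleted replicate 1 gave -0.0031 and leaving out wild-type replicate 3 gave -0.014.

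The relative strength of shared members was compared by their percentile rank, by fold, among the 17009 regions called everywhere, so that the same regions were ranked in each library. By limma 0 of the 17009 passed at an adjusted p of 0.05 (0%), and 1432 (8.42%) had an unadjusted p under 0.05. Of the 91 members, 0 passed and 9 had an unadjusted p under 0.05, a share near that of the series. Rank was higher in NuMA-depleted cells for 41 and lower for 50, with a median difference of -1.33 percentiles, where all regions had -0.043. Without NuMA-depleted replicate 2 the median turned to 0.11, with 46 higher and 45 lower. It was -3.62 without wild-type replicate 1, -0.51 without wild-type replicate 3, and -4.22 when regions were ranked by −log10 q. Members whose ranks did not overlap between the groups numbered 11 of 91 (12.1%), against 13% of all regions. Of these, 6 were higher in all 3 NuMA-depleted libraries (background 6.75%) and 5 lower (background 6.21%).

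The member with the smallest unadjusted limma p lay in cluster 4 at chr19:52531310-52532135. It stood at the percentiles 82.0, 62.8 and 54.0 in NuMA-depleted and 23.7, 36.0 and 27.4 in wild-type libraries. All 3 NuMA-depleted values lay above the wild-type ones, by 37.2 percentiles on average (SE 9.28; adjusted p = 0.408 by limma). The opposite case in cluster 1, chr19:21105834-21106485, is the first region listed in that interval. It stood at 67.1, 77.6 and 69.2 in NuMA-depleted and 91.4, 90.4 and 95.6 in wild-type libraries, a difference of -21.2 percentiles (SE 6.79; adjusted p = 0.483 by limma). It was picked after its value was seen, and neither region passed the adjusted threshold.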

How the data were processed

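Peak lists of 6 ATAC-seq libraries, 3 NuMA-depleted and 3 wild-type, were used as the authors deposited them. Trim Galore, Picard and Bowtie2 (2.4.1) are the tools and hg19 the build per the submitters' processing notes. Peak names hold a macs2 folder. As to caller settings, read shift and reads that map to several places, these were not given in the sources used here. Deposited columns are a fold over background (a linear ratio), a −log10 p and a −log10 q per peak (at least 2.00 in each list), and a score that follows the −log10 q and was not used. Depth in reads is unknown.

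Peaks were placed by their centre. Distances run from centre to centre within a stretch. Exact tests were run over libraries, and limma 3.58.1 (R 4.3.3) over all bins (placed by summit, pseudocount 0.5, mean of at least 5 peaks, moderated with a trend) and all shared regions, with Benjamini-Hochberg adjustment. Both limma fits were tested on simulated data. Other work used Python 3.11.15, numpy 2.4.6 and pandas 2.3.3. The regions named are, in each cluster, the 2 with the highest weakest −log10 q and the widest among those called everywhere, the longest distance, group-only regions and the smallest p. Members and lists were chosen with earlier results of these data known. Alternatives changed the q threshold (−log10 q of 5), took equally many peaks per list, moved edges or membership, joined summits, used other bins or ranks, added a replicate block or left out 1 library. Restriction to regions called in all libraries and omission of cluster 1 were added after seeing the data. Sequence is not shown, as no genome of this build was used here.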

Additional observations from a re-analysis of the deposited data

How the results depend on the processing

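Density, spacing, width and fold of the clusters against the rest kept their direction and their exact p of 0.03125 with peaks of −log10 q 5 or more, with equally many peaks per list, with membership by any overlap and with intervals trimmed by 0.1 Mb. That p is the smallest that 6 libraries allow and cannot show a change in size. With equally many peaks per list density moved from -1.45 to -1.18 (log2), spacing from 0.93 to 0.76 and fold from 0.42 to 0.32. The width difference was then 75.25 bp, against 127 bp in the main run. Leaving out each library gave ranges of -1.50 to -1.41 (log2) for density, 0.90 to 0.97 for spacing, 124 to 136 bp for width and 0.41 to 0.43 for fold, with an exact p of 0.0625, the smallest that 5 libraries allow. Restricted to regions called in all libraries (added after seeing the data), the width difference was 49.2 bp (exact p = 0.0625) and that in local variation -0.18 (exact p = 0.03125). Each library then holds the same regions at nearly the same positions, so an equal sign of the local variation in all libraries was nearly given. No conclusion is drawn from that p. Over these regions themselves the local variation was 0.721 in the clusters and 0.827 in the rest. Without cluster 1 (also added) the difference in local variation was -0.11. With equal numbers of peaks 60.8% of members were called in all 6 libraries, against 52.9% in the main run. The share was 46.7% with summits within 250 bp joined and 52.1% with trimmed intervals. It was 53.2% with membership by any overlap and 55.7% with −log10 q of 5 or more. Leaving out each library gave 53.5% to 63.4% (the highest without NuMA-depleted replicate 3), 0 to 2 depleted-only and 0 to 3 wild-type-only members. Differences between the groups turned sign in several settings without passing a test, and the cause was not tested. Local variation turned from 0.045 to -0.016 with equal numbers. With trimmed intervals spacing turned from 0.090 to -0.010 and fold from 0.010 to -0.021. In regions called in all libraries, fold turned from 0.010 to -0.073. Density there was 0.035, against -0.055 in the main run, and spacing was -0.042. Each library then holds the same regions, so density could differ only through regions split into more than 1 peak or peaks at a stretch's edge. Spacing was likewise nearly fixed by the shared positions, and neither is read as a change of sign. In the same regions the difference between the groups in the width excess kept its sign and grew from -18.3 to -49.2 bp (exact permutation p = 0.1, the smallest possible). Leaving out each library gave -0.20 to 0.032 for density, -0.024 to 0.12 for local variation, 0.019 to 0.17 for spacing (lowest without wild-type replicate 3, highest without NuMA-depleted replicate 3), -28.8 to -1 bp for width, -0.0043 to 0.037 for fold and -0.055 to 0.011 percentage points for the share; the sign turned without NuMA-depleted replicate 1 or 2 (density), NuMA-depleted replicate 2 (local variation, share) and wild-type replicate 2 or 3 (fold). The limma counts in the clusters, 0 bins and 0 shared regions, were 0 in each alternative run, with an unadjusted p under 0.05 in 0 to 3 bins and 2 to 9 regions. With a replicate block they were 0 and 0. Same-numbered libraries deviated together with correlations of -0.077, 0.092 and 0.0067 over bins, so the numbers were not taken as pairs.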
